A study of Mus musculus with 18 samples.

Results

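Liver RNA of old mice on a normal diet (ND) was compared with that of young mice on a high-fat diet (HFD), which sets ageing without the fatty diet against the fatty diet without ageing. The 5 libraries labelled old ND and the 5 labelled young HFD were taken from the ND and the HFD count table and joined by gene symbol, 10 of the 18 libraries of the series. All mice were C57BL6 males, and each library held poly(A) RNA of a whole liver, 1 library per mouse. The feeding period was 9 weeks. The HFD was Test-Diet 58Y1 and the ND was Teklad 2018 from Envigo, as the series' design text gives them, while the study's methods name another normal diet, so which normal diet was fed is uncertain. The 4 young ND libraries served as the common reference, and the 4 old HFD libraries gave context.

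The ageing liver is known to gather lymphocytes and macrophages and to raise antigen presentation and interferon-responsive genes. A high-fat diet brings in more fatty acid than is burnt, activates the nuclear receptor PPARα, which drives genes of fatty acid oxidation, and leads to lipid droplets and inflammation. In whole liver a higher level of an immune gene can mean more cells of a type or more RNA per cell, and the present counts cannot tell these apart.

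The 2 groups lie in different tables. Per the file headers the ND table was counted on the gene's own strand and the HFD table without a strand setting, so diet, table and counting cannot be told apart. Results are therefore led by genes counted alike: those whose exons overlap no annotated exon on the opposite strand, with under 5% of their 31-mers shared with another locus and the same transcript in both tables. Of 14275 genes tested, 8215 met this. Total counts were 20373560 to 26406105 in old ND and 23642964 to 36427856 in young HFD, and 79.28 to 80.99% and 79.72 to 80.55% of aligned tags were counted. Levels are given as CPM (counts relative to the TMM-scaled library size), and the values of a gene are listed in the order of replicates 1 to 5. A log2 difference is old ND minus young HFD with its standard error (SE), and an adjusted p comes from edgeR's quasi-likelihood test with Benjamini-Hochberg adjustment over all genes tested. A gene was called at an adjusted p under 0.05. Where none of a list was higher or none lower by edgeR, DESeq2, limma voom and an unadjusted p under 0.05 gave 0 as well unless stated. Old ND replicate 5 stood apart from its group, with a chi-square per degree of freedom over genes of 78.31 to 113.8 against the other old ND libraries and 24.0 to 44.38 among those, as did old HFD replicate 4 (213.2 to 353.4 against 39.4 to 73.22). Without old ND replicate 5, 2168 genes counted alike were called between the groups, 1404 higher and 764 lower, and list counts that it moved by more than 2 genes are given with their value without it.

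Among the genes counted alike, 1963 (23.9%) differed between old ND and young HFD, 1284 (15.6%) higher in old ND and 679 (8.27%) lower. Over all genes tested 4355 (30.5%) were called, with the balance the other way: 1893 (13.3%) higher and 2462 (17.2%) lower. The balance moved with the scaling. Of the calls among genes counted alike 65.41% were higher in old ND, against 82.17% with upper-quartile scaling and 50.94% when the scaling factors came from genes counted alike alone. Over all genes tested, upper-quartile scaling turned the balance, with 3151 higher and 2038 lower, and factors from genes counted alike gave 1373 and 2921. At an unadjusted p under 0.05 there were 2841 genes counted alike (34.6%), and in 1319 (16.1%) the CPM of the groups did not overlap. Changes of at least 2-fold were fewer, 297 (3.62%) higher and 172 (2.09%) lower. For 4991 (60.8%) of the genes counted alike the 95% interval of the log2 difference lay within 1.5-fold either way.

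Setting both groups against young ND sorted the differing genes into classes. Against young ND 962 genes counted alike (11.7%) were called in old ND, 602 (7.33%) higher and 360 (4.38%) lower. In young HFD 987 (12.0%) were called, 385 (4.69%) higher and 602 (7.33%) lower, and the 2 comparisons share the 4 young ND libraries. Old ND stood apart, that is, differed the same way from young ND and from young HFD, in 374 genes (4.55%) on the higher side and 185 (2.25%) on the lower, together 559, which fell to 318, 362 and 269 without young ND replicates 2, 3 and 4 and to 275 without old ND replicate 3. Young HFD stood apart in 214 genes (2.60%) in which it was the higher and 318 (3.87%) in which it was the lower. This split moved with the scaling, to 258 higher and 210 lower with factors from genes counted alike and to 169 and 705 with upper-quartile scaling, and that of old ND to 311 and 272 and to 500 and 109. In 31 genes both held, with old ND and young HFD on opposite sides of young ND, 21 (0.256%) higher in old ND and 10 (0.122%) higher in young HFD. A shared class was drawn narrowly: called in both against young ND with the same sign, and with the 95% interval between old ND and young HFD within 1.5-fold. It held 29 genes (0.353%) higher and 60 (0.730%) lower than in young ND. A further 903 genes (11.0%) were called between old ND and young HFD while neither was called against young ND. The shared class was sensitive to single libraries, holding 31, 35 and 37 genes without young ND replicates 2, 3 and 4 and 152 without old ND replicate 5.

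**Figure D1:**
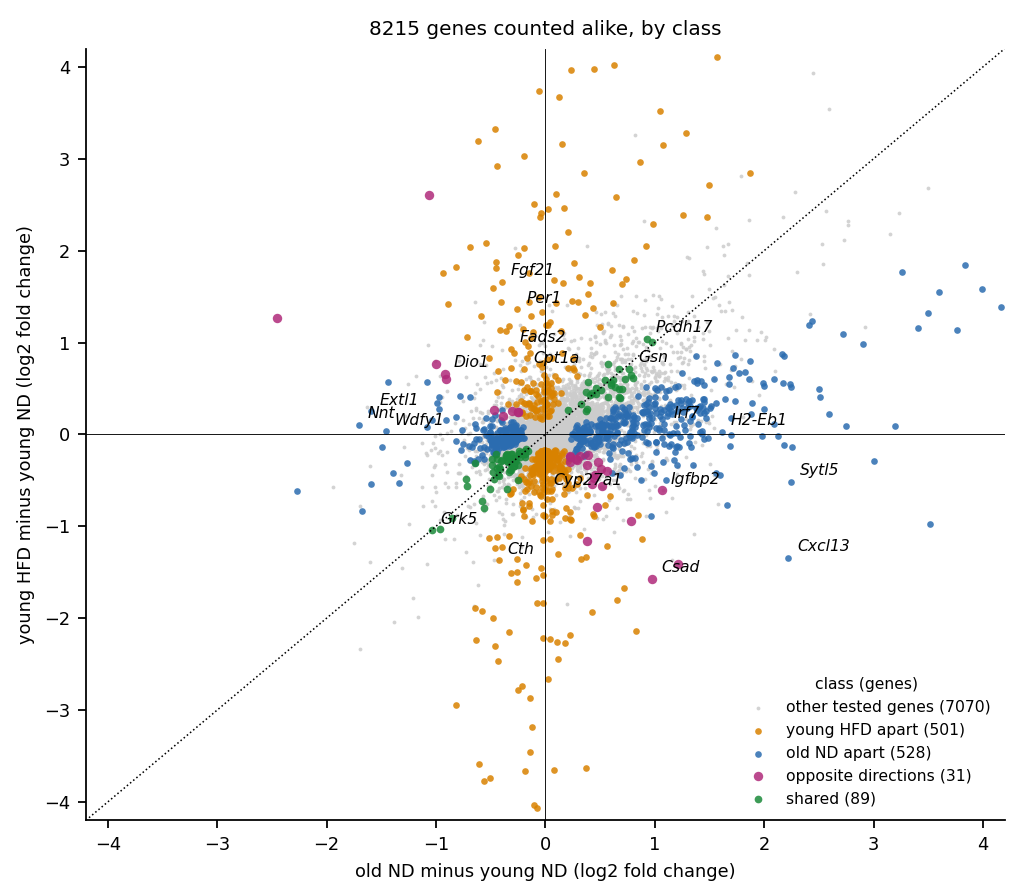
Log2 difference of old ND from young ND (horizontal axis) against that of young HFD from young ND (vertical axis) for the 8215 genes counted alike, 1 point per gene, coloured by class; both axes share the young ND libraries. The 528 genes in which old ND alone stood apart spread along the horizontal axis, the 501 in which young HFD alone did spread along the vertical axis, 89 shared genes lie near the diagonal and 31 opposite genes across it; 63 genes lie outside the axis limits of 4.2.

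Antigen presentation genes load peptides onto MHC class I and class II molecules, the latter carried mainly by macrophages, dendritic cells and B cells. Of 7 members counted alike, 6 were higher in old ND and none lower, with a median log2 difference of 1.24 against 0.06 over all genes counted alike. Of the 7, 5 put old ND apart. The summed level of the 7 was 1982 to 2627 CPM in old ND and 1357 to 1548 CPM in young HFD. Over all 18 members, counted alike or not, 13 were higher.

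H2-Eb1 encodes the β chain of the class II molecule I-E. Its level was 98.8, 68.3, 116, 59.1 and 52.8 CPM in old ND and 26.0, 16.4, 24.6, 37.1 and 27.3 CPM in young HFD. All 5 old ND livers lay above all 5 young HFD livers (log2 difference 1.59 ± 0.35, adjusted p = 0.0027), and young HFD lay at the level of young ND (log2 difference 0.03, adjusted p = 0.97). H2-Ab1 and H2-Aa, the chains of the other class II molecule I-A, followed with log2 differences of 1.53 ± 0.36 (adjusted p = 0.0041) and 1.43 ± 0.34 (adjusted p = 0.0044). Cd74, the invariant chain that guides class II molecules to the endosome, was at 266, 187, 319.6, 185 and 138 CPM in old ND and at 95.2, 65.9, 80.0, 124 and 99.7 CPM in young HFD. Its lowest old ND liver was above its highest young HFD liver (log2 difference 1.24 ± 0.32, adjusted p = 0.0078). B2m, the light chain of class I molecules, had a smaller difference of 0.47 ± 0.08 (adjusted p = 1e-04). H2-Aa, Cd74 and B2m were chosen after their values were seen.

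The promoters of class II genes are known to carry an X box and a Y box. They are shown here because the class II genes moved together. Both sequences come from RefSeq on GRCm38.p6 and run from 250 bases before to 50 after the gene's start, H2-Eb1 at chr17:34305617-34305916 on the plus strand and H2-Aa at chr17:34287774-34288073 on the minus strand. Capitals mark matches to the X box (AGCAAC, any base, GATG) and the Y box (CTGATTGG), searched on both strands.
H2-Eb1: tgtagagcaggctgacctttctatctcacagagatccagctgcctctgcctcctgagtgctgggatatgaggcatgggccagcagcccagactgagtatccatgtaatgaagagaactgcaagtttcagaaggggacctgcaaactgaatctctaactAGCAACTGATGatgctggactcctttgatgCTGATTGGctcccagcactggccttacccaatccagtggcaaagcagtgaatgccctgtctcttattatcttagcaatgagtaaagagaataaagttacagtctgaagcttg
H2-Aa: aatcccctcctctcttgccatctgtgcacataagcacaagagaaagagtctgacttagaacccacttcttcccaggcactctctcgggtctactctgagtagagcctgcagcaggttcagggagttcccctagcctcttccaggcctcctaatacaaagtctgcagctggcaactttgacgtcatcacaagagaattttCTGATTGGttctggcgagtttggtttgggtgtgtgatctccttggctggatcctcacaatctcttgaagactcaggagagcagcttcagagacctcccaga
Of 32851 promoters of this length, 23 (0.07%) held these X box letters and 1346 (4.10%) these Y box letters. Of the 4 antigen presentation genes counted alike that had a promoter entry, 1 held the X box letters and 2 the Y box letters. A match is a description of letters, not of binding.

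Interferon-stimulated genes, the antiviral programme downstream of interferon receptors, were higher in old ND in part. Of 17 counted alike, 9 were higher and none lower, with a median log2 difference of 0.65. Against young HFD, old HFD was higher in all 17, where 12.4% of the genes counted alike were, and both comparisons use the young HFD libraries. The count of 9 was not stable. It was 5 without old ND replicate 2 or 3, 4 without old ND replicate 4, young HFD replicate 1 or young HFD replicate 3, and 14 without old ND replicate 5. It was 5 when the scaling factors came from genes counted alike. The summed level was 579.2 to 971.3 CPM in old ND and 520.7 to 665.7 CPM in young HFD, so the groups overlapped.

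Bst2 (tetherin), which holds budding virus at the cell surface, was at 159, 128, 157, 111 and 149.9 CPM in old ND and at 64.4, 74.5, 66.1, 85.2 and 80.7 CPM in young HFD. The groups did not overlap (log2 difference 0.93 ± 0.11, adjusted p = 1.3e-06), and Bst2 was called on opposite sides of young ND, 0.45 higher in old ND (adjusted p = 0.019) and 0.48 lower in young HFD (log2 change -0.48, adjusted p = 0.0043). Irf7, the factor that amplifies the type I interferon response, was at 75.2, 75.2, 101, 57.0 and 41.4 CPM in old ND and at 30.8, 38.4, 26.2, 38.4 and 43.8 CPM in young HFD. Only old ND replicate 5 fell within the young HFD range (log2 difference 0.98 ± 0.21, adjusted p = 0.0016). Rtp4, an interferon-induced chaperone, had a log2 difference of 0.79 (adjusted p = 0.00088) and Psmb10, a subunit of the immunoproteasome, of 0.66 (adjusted p = 0.00049). Rsad2 (viperin) and Ddx58 (RIG-I) were not called, at 0.07 (adjusted p = 0.88) and 0.10 (adjusted p = 0.57). Rtp4, Psmb10, Rsad2 and Ddx58 were chosen after their values were seen.

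The Bst2 promoter is printed for the gene with the smallest p of this list. It lies at chr8:71537423-71537722 on the minus strand (RefSeq, GRCm38.p6), and capitals mark a pair of overlapping matches to the core of the interferon-stimulated response element (GAAA, any 2 bases, GAAA).
Bst2: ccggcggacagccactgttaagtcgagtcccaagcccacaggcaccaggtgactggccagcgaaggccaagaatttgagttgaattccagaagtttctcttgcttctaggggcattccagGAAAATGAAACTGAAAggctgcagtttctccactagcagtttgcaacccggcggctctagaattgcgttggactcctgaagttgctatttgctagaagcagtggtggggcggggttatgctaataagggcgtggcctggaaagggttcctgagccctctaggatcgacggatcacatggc
These letters occur on either strand in 1131 (3.44%) of the 32851 promoters and in 7 of the 14 interferon-stimulated genes counted alike that had a promoter entry. Rsad2 and Ddx58, which were not called, are among the 7.

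Of 13 T cell markers counted alike, 7 were higher in old ND than in young HFD and none lower (median log2 difference 1.45), and 2 were higher in old ND than in young ND. The summed level was 18.63 to 30.35 CPM in old ND and 11.82 to 15.9 CPM in young HFD. Cd8a, the co-receptor of cytotoxic T cells, was at 1.15, 2.85, 2.61, 0.757 and 0.809 CPM in old ND and at 0.409, 0.131, 0.458, 0.619 and 0.409 CPM in young HFD. These are low counts, 3 to 248 per library over the series, and the groups did not overlap (log2 difference 1.99 ± 0.52, adjusted p = 0.0069). Cd3g, a chain of the T cell receptor complex, differed by 1.82 (adjusted p = 0.0044), and Lck, the kinase that starts T cell receptor signalling and was chosen after its values were seen, by 1.26 (adjusted p = 0.006). The T cell count was 4 without old ND replicate 3 or young HFD replicate 3, and 1 with at least 10 counts required in every library.

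Of 8 natural killer and cytotoxic markers, 3 were higher (median 1.36), and 2 were higher in old ND than in young ND. The 3 became 2 to 5 with 1 library left out, the lowest without old ND replicate 3 and the highest without young HFD replicate 5 or old HFD replicate 3 or 4, and 1 with at least 10 counts required in every library. Among the 3 were Ccl5, a chemokine of activated lymphocytes (log2 difference 2.10, adjusted p = 0.011), and Nkg7, a granule protein (1.69, adjusted p = 0.014, and 0.057 without old ND replicate 3). Of 8 B cell and plasma cell markers, 4 were higher (median 0.88), and 2 without old ND replicate 4, while 3 were higher in old ND than in young ND. Ms4a1 (CD20), a surface marker of mature B cells, differed by 1.18 ± 0.26 (adjusted p = 0.0018). Jchain, which joins secreted antibody units, was at 3.02, 12.9, 11.0, 21.7 and 7.82 CPM in old ND and at 3.14, 4.61, 1.52, 2.40 and 2.51 CPM in young HFD. The lowest old ND liver lay within the young HFD range (log2 difference 2.00 ± 0.60, adjusted p = 0.018), and the adjusted p was 0.052 without old ND replicate 4. No marker of either list was lower.

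Of 12 Kupffer cell and macrophage markers, 5 were higher in old ND and none lower by edgeR (median log2 difference 0.41), with 1 lower at an unadjusted p under 0.05, with DESeq2 and with limma voom. Adgre1 (F4/80) was at 61.8, 42.2, 83.8, 66.0 and 47.5 CPM in old ND and at 38.8, 33.3, 26.1, 39.4 and 44.7 CPM in young HFD, with 1 old ND liver inside the young HFD range (log2 difference 0.72 ± 0.21, adjusted p = 0.015). C1qa, a complement chain made by macrophages, differed by 0.78 ± 0.18 (adjusted p = 0.0027). Of 6 monocyte and lipid-associated macrophage markers, 4 were higher in old ND than in young ND and 5 were higher in young HFD than in young ND, and 1 differed between old ND and young HFD. That one was Gpnmb, a membrane glycoprotein of lipid-laden macrophages. It was at 4.51, 5.38, 5.70, 2.86 and 2.97 CPM in old ND and at 1.23, 0.609, 1.14, 0.581 and 1.02 CPM in young HFD, and at most 0.263 CPM in young ND. Both groups lay above young ND, and old ND lay above young HFD (log2 difference 2.20 ± 0.54, adjusted p = 0.0047). Trem2, a lipid receptor of the same cells, was higher than in young ND in both groups (1.44 in old ND, adjusted p = 0.031, and 1.77 in young HFD, adjusted p = 0.0026) and its difference between them was -0.33 (95% interval -1.02 to 0.35), too wide for the shared class. The fractalkine receptor Cx3cr1 and the β-glucan receptor Clec7a were likewise higher than young ND in both groups, with differences between them of 0.26 (95% interval -0.56 to 1.08) and 0.37 (-0.16 to 0.90). Trem2, Cx3cr1 and Clec7a were chosen after their values were seen.

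Of 19 cytokines and chemokines, 5 were higher in old ND and none lower, and 2 without old ND replicate 3, 3 without young HFD replicate 3 or 5. Cxcl13, the chemokine that draws B cells into follicles, had the largest called difference of the list, at 6.38, 8.05, 17.7, 17.0 and 12.0 CPM in old ND and 1.34, 1.22, 0.381, 1.35 and 0.847 CPM in young HFD. The groups were far apart (log2 difference 3.57 ± 0.55, adjusted p = 7.8e-05), and old ND was above young ND as well (2.22, adjusted p = 0.018).

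Markers of other liver cells were counted in the same way. None of 13 stellate cell and matrix genes was higher in old ND and 1 was lower (Rgs5, a pericyte signalling regulator, -0.62 ± 0.22, adjusted p = 0.044, and up to 0.10 with single libraries left out), with summed levels of 290.8 to 421.2 CPM in old ND and 351.7 to 455.9 CPM in young HFD. Against young ND, 1 of the 13 was higher in old ND and 4 in young HFD. Col1a1, a chain of type I collagen chosen after its values were seen, was at 12.9, 12.7, 19.0, 9.84 and 6.47 CPM in old ND, at 28.1, 11.0, 16.2, 15.1 and 11.7 CPM in young HFD and at no more than 4.85 CPM in young ND. It was called against young ND in young HFD (2.05, adjusted p = 0.021) and not in old ND (1.62, adjusted p = 0.086), and the groups overlapped (-0.43 ± 0.50, adjusted p = 0.55). Of 8 endothelial markers, none was higher and 1 was lower by edgeR (Egfl7, -0.45, adjusted p = 0.0017). At an unadjusted p under 0.05 there were 1 higher and 3 lower, with DESeq2 1 and 1, and with limma voom 1 and 2. Of 6 cholangiocyte markers 1 was higher, Sox9, a factor of bile duct cells (1.13, adjusted p = 0.00097). Of 10 hepatocyte markers 1 was higher, Cps1. The 3 neutrophil markers gave 0 calls with edgeR, 0 at an unadjusted p under 0.05, and 0 with DESeq2 or limma voom. The 14 acute phase genes gave 0 calls with edgeR over all 18 libraries, 1 higher gene at an unadjusted p under 0.05, and 1 higher gene with each of DESeq2 and limma voom. Other edgeR fits called members, 2 higher without old HFD replicate 4, 3 higher in a fit without old HFD, and 2 higher and 1 lower in a fit to the 2 groups alone. Members of the T cell, natural killer, B cell and macrophage lists (7 of 13, 3 of 8, 4 of 8 and 5 of 12) were called higher in the same comparison as the antigen presentation genes, and their part in that result was not tested.

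**Figure D2:**
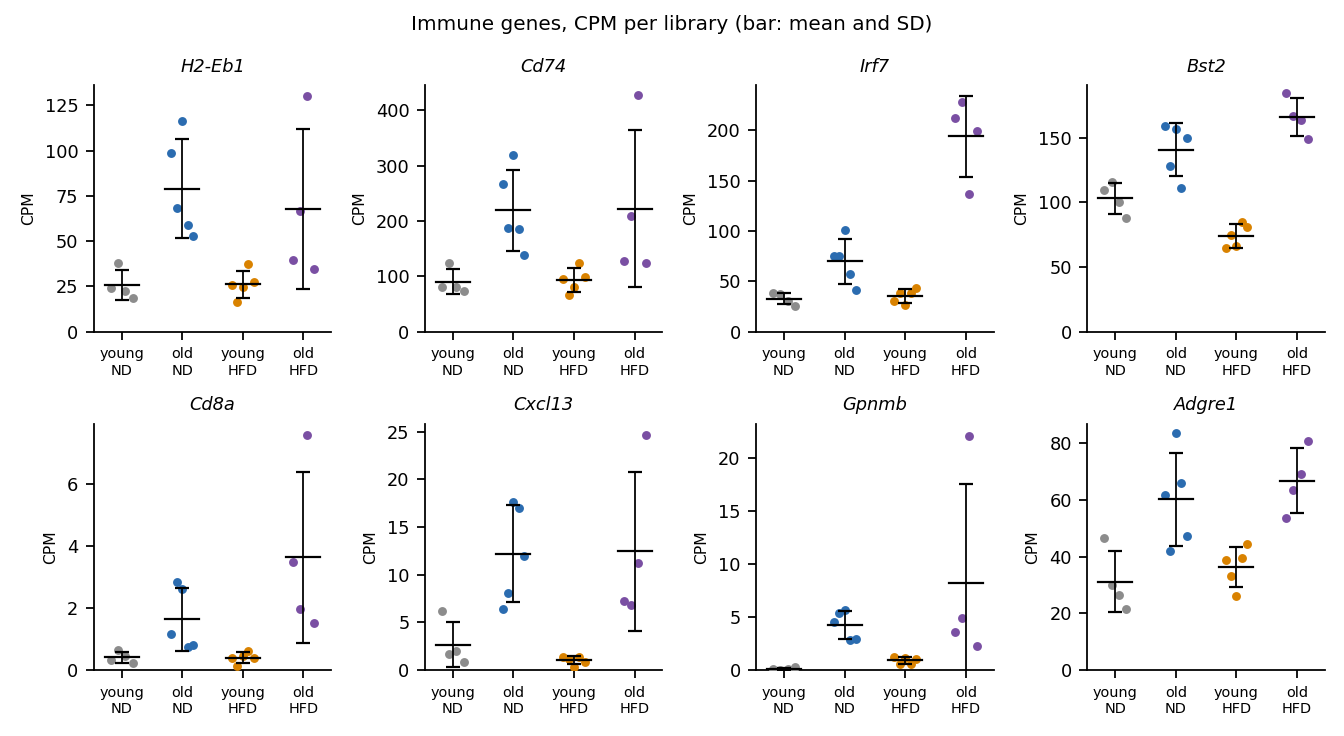
CPM of 8 immune genes in each library of the 4 groups, 1 point per mouse, with bars for the group mean and SD. For H2-Eb1, Cd74, Bst2, Cd8a, Cxcl13 and Gpnmb each of the 5 old ND livers lies above each of the 5 young HFD livers, while Irf7 and Adgre1 overlap.

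**Figure D3:**
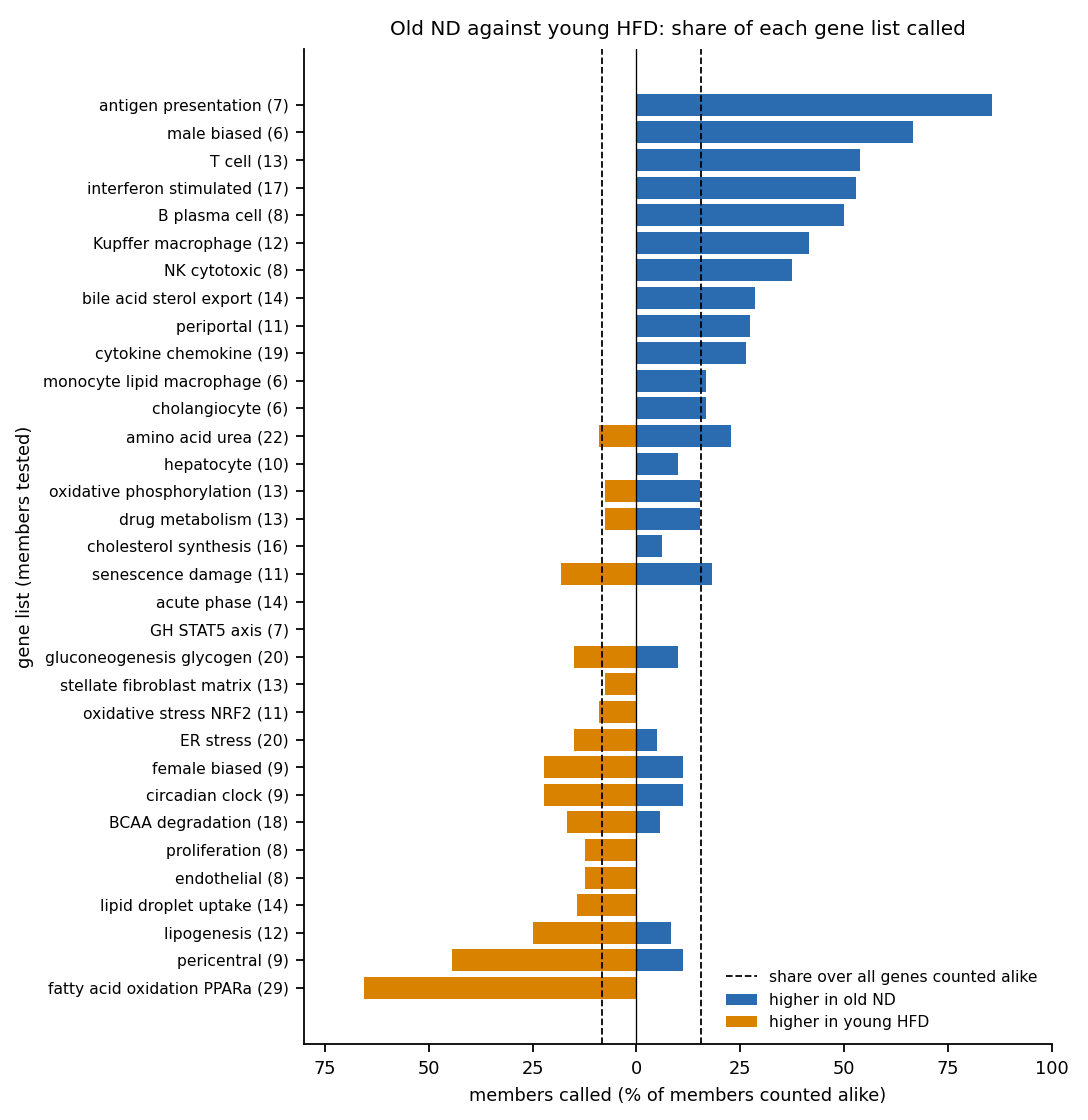
Share in percent of the members counted alike of each functional or cell type list of at least 6 genes that were higher in old ND (right) or higher in young HFD (left). Dashed lines mark the shares over all genes counted alike, 15.6% higher and 8.27% lower; antigen presentation stands at 6 of 7 on the right and fatty acid oxidation at 19 of 29 on the left.

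Of 29 fatty acid oxidation and other PPARα target genes counted alike, 19 were lower in old ND and none higher, with a median log2 difference of -0.57. The list held 4 genes higher in young HFD than in young ND, and 1 higher and 1 lower in old ND than in young ND, with medians of 0.17 and -0.38. The medians of the groups thus lay on opposite sides of young ND, and few of the single shifts were called. Summed levels were 9532 to 13910 CPM in old ND, 15860 to 19060 CPM in young HFD and 14880 to 16520 CPM in young ND. Leaving out 1 library gave 13 to 22 lower genes and no higher one, and a fit to the 2 groups alone 22 lower and 1 higher.

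Cpt1a, which admits long-chain fatty acids to the mitochondrion, was at 384, 467, 365, 483 and 329 CPM in old ND and at 768, 797, 748, 747 and 734 CPM in young HFD. The gap was wider than the spread in either group (log2 difference -0.90 ± 0.12, adjusted p = 7.7e-06), and young HFD was above young ND (0.71, adjusted p = 0.00032). Fgf21, a liver hormone released on fasting and other metabolic stress, was at 0.863, 0.644, 0.589, 1.85 and 2.29 CPM in old ND and at 4.94, 4.83, 5.34, 4.95 and 5.90 CPM in young HFD. It was higher in young HFD than in young ND (1.66, adjusted p = 0.013), and the difference of old ND from young HFD was -2.06 ± 0.43 (adjusted p = 0.0012). Vnn1, a pantetheinase induced by PPARα, differed by -1.46 (adjusted p = 0.012) and Ppara itself by -0.64 (adjusted p = 0.0047). Not every target was called. Cyp4a14, a fatty acid ω-hydroxylase, gave -0.98 (adjusted p = 0.26) and varied widely in old ND, from 37.5 to 770 CPM. Ehhadh of peroxisomal oxidation gave -0.09 (adjusted p = 0.77) and Pdk4, which holds back pyruvate oxidation, 0.50 (adjusted p = 0.27). Cpt1a, Ppara, Cyp4a14, Ehhadh and Pdk4 were chosen after their values were seen.

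Of 14 lipid droplet and uptake genes 2 were lower in old ND, Vldlr and Pparg (-0.68 ± 0.22, adjusted p = 0.03, and up to 0.075 with single libraries left out). Over all 23 tested, 8 were lower. Among the 14, 1 was higher at an unadjusted p under 0.05, and limma voom called 1 higher and 4 lower. Vldlr, a receptor for triglyceride-rich particles, was at 2.25, 4.42, 2.61, 6.69 and 5.17 CPM in old ND and at 14.9, 13.5, 12.4, 10.1 and 11.0 CPM in young HFD, with no overlap (-1.55 ± 0.37, adjusted p = 0.0037). Of 12 lipogenesis genes 3 were lower and 1 higher, and over all 22 tested 7 were lower and 2 higher. Fads2, the desaturase that starts the synthesis of long polyunsaturated fatty acids, was at 339, 303, 273, 383 and 192 CPM in old ND and at 736, 665, 736, 698 and 715 CPM in young HFD. It was called against young ND in young HFD only (0.93, adjusted p = 0.0066) and differed between the groups by -1.25 ± 0.22 (adjusted p = 0.00021). Fads3 lies within 5000 bases of it on the opposite strand. Mlxipl, the carbohydrate-responsive factor ChREBP, was the one higher gene (0.49, adjusted p = 0.00026). Of 16 cholesterol synthesis genes 1 was higher, Pmvk, a kinase of the mevalonate pathway (0.95, adjusted p = 0.0036), and 5 were without old ND replicate 5.

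Of 14 bile acid and sterol export genes, 4 were higher in old ND than in young HFD, none was lower and 10 were not called. In young HFD 6 were lower than in young ND, and young HFD stood apart in 4 of the 14. Cyp27a1, which opens the acidic pathway of bile acid synthesis, was at 609, 581, 564, 600.2 and 698 CPM in old ND and at 335, 440.2, 403, 358 and 453 CPM in young HFD. The groups did not overlap (log2 difference 0.62 ± 0.09, adjusted p = 3.8e-05). Slc27a5, which activates bile acids for conjugation, followed at 0.48 ± 0.10 (adjusted p = 0.00076) and Baat, which conjugates them with taurine or glycine, at 0.37 ± 0.09 (adjusted p = 0.0056). Cyp7a1, the rate-limiting enzyme of the classical pathway, varied widely within groups and was not called (0.30 ± 0.50, adjusted p = 0.69). Slc27a5, Baat and Cyp7a1 were chosen after their values were seen.

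Of 22 amino acid and urea cycle genes, 8 were lower in old ND than in young ND and 12 were lower in young HFD than in young ND, and 3 were in the shared class. Between the groups 5 were higher in old ND, 2 were lower and 15 were not called, and over all 29 tested 6 were higher and 5 lower. With 1 library left out, 4 to 7 of the 22 were higher and 1 to 4 lower. Cth, which makes cysteine from cystathionine, was at 511, 638, 397, 492 and 476 CPM in old ND and at 235, 292, 239.7, 275 and 266 CPM in young HFD. It was lower in young HFD than in young ND (log2 change -1.37, adjusted p = 2.9e-06), and old ND was above young HFD by 0.94 ± 0.16 (adjusted p = 0.00014). Hal, which starts histidine breakdown, showed 0.76 ± 0.12 (adjusted p = 1e-04). Cps1, the entry enzyme of the urea cycle, was at 6636, 6164, 5686, 5185 and 4334 CPM in old ND and at 2524, 4286, 3707, 4151 and 3877 CPM in young HFD. The lowest old ND value lay just above the highest of young HFD (0.59 ± 0.16, adjusted p = 0.007). Of 18 genes of branched-chain amino acid breakdown, 16 had a 95% interval within 1.5-fold, where 60.8% of the genes counted alike had. Of the 18, 3 were lower in old ND and 1 higher. Acat1 and Hsd17b10, which act late in that breakdown, were lower by 0.67 and 0.55 (log2 differences -0.67 ± 0.15 and -0.55 ± 0.13, adjusted p = 0.0016 and 0.0031).

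Calls among sugar metabolism and detoxification genes are set beside the shares over all genes counted alike, 15.6% higher and 8.27% lower. Of 20 gluconeogenesis and glycogen genes, 2 were higher in old ND and 3 lower. Ppp1r3c, which targets a phosphatase to glycogen, was higher (0.90 ± 0.27, adjusted p = 0.017), as was Insr, the insulin receptor (0.34 ± 0.09, adjusted p = 0.0056). Pfkfb1, the liver enzyme that sets fructose 2,6-bisphosphate, was lower (-0.49 ± 0.12, adjusted p = 0.005). Of 13 drug metabolism genes counted alike, 2 were higher and 1 lower, close to those shares. Over all 53 tested 14 were higher and 10 lower, where 13.3% and 17.2% of all genes tested were. Cyp2c70, which hydroxylates bile acids in mice, was higher (1.07 ± 0.31, adjusted p = 0.015), as was Gsta4, a glutathione transferase for lipid peroxidation products (1.33 ± 0.44, adjusted p = 0.03). The Gsta4 call was lost without old ND replicate 5 (adjusted p = 0.076) and without any of young HFD replicates 1, 3, 4 and 5.

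Slc7a11, the cystine importer of the NRF2 response, was close to 0 on the normal diet. It was at 0.0959, 0.322, 0.331, 0.421 and 0.0899 CPM in old ND and at 4.04, 2.35, 2.94, 3.02 and 2.69 CPM in young HFD. Old ND held at most 0.421 CPM where young HFD held at least 2.35 CPM (log2 difference -3.53 ± 0.35, adjusted p = 1.1e-07). The other 10 NRF2 genes counted alike were not called by edgeR over all 18 libraries. At an unadjusted p under 0.05 the list of 11 held 1 higher and 2 lower genes, and other edgeR fits called 1 higher (upper-quartile scaling, or without old ND replicate 3) or 2 lower (without old HFD, without its replicate 4, or in a fit to the 2 groups alone).

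**Figure D4:**
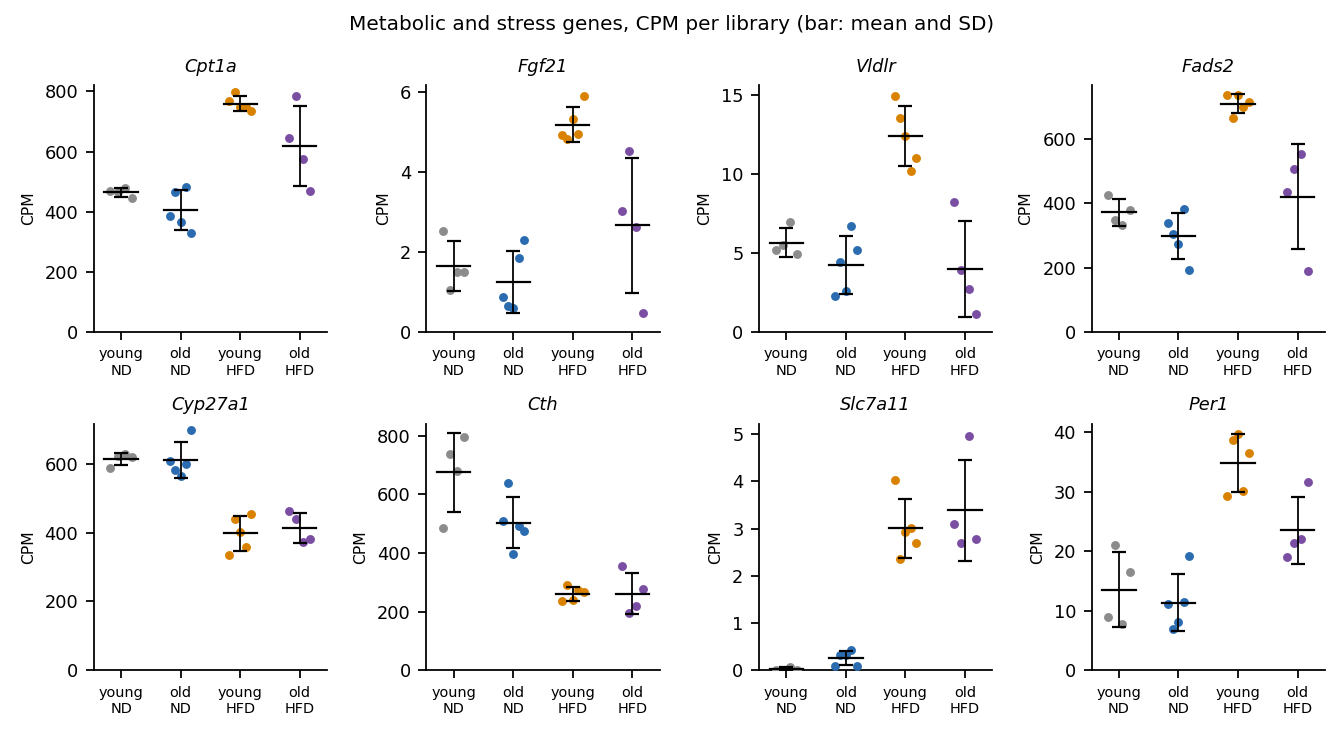
CPM of 8 metabolic and clock genes in each library of the 4 groups, 1 point per mouse, with bars for the group mean and SD. Cpt1a, Fgf21, Vldlr, Fads2, Slc7a11 and Per1 are lower in each old ND liver than in each young HFD liver, and Cyp27a1 and Cth are higher.

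Of 9 pericentral genes 4 were lower in old ND and 1 higher, and 6 were lower in old ND than in young ND. Lect2, a hepatocyte-secreted protein of the pericentral zone, was at 51.1, 67.1, 56.9, 55.5 and 51.7 CPM in old ND and at 123, 119, 99.8, 124 and 102 CPM in young HFD. Old ND was the group that stood apart (-1.01 ± 0.17, adjusted p = 0.00012). Of 6 genes with higher expression in male liver, 4 were higher in old ND and 5 were lower in young HFD than in young ND. The 4 dropped to 1 without young HFD replicate 1 or 3 and to 2 without old ND replicate 1, 2 or 5 or young HFD replicate 5. Over all 18 such genes tested 4 were higher and 1 lower between the groups. In young HFD 2 of the 18 were higher and 7 lower than in young ND. Of 9 genes with higher expression in female liver, 2 were lower and 1 higher, and over all 16 tested 8 were lower and 1 higher. Of the 9, 1 was lower in fits such as those without old ND replicate 1, 2 or 3. None was higher without old ND replicate 4. Hao2, a peroxisomal hydroxy-acid oxidase, was at 0.192, 0.644, 0.515, 1.01 and 0.495 CPM in old ND and at 5.43, 3.70, 3.55, 3.13 and 2.22 CPM in young HFD (-2.64 ± 0.56, adjusted p = 0.0014). Of 9 clock genes 1 was higher in old ND (Clock, a core activator) and 2 were lower, and over all 19 tested 4 were higher and 3 lower. The call of Clock was lost without old ND replicate 2 or 4 or young HFD replicate 3, 4 or 5, with scaling factors from genes counted alike and in a separate fit to those genes. Per1, a light- and hormone-responsive repressor, was at 11.1, 6.99, 8.06, 11.4 and 19.2 CPM in old ND and at 29.3, 38.6, 39.7, 30.2 and 36.4 CPM in young HFD (-1.62 ± 0.28, adjusted p = 3e-04). Per2, its paralog, was lower too (adjusted p = 0.0043). Of 13 oxidative phosphorylation genes 12 had an interval within 1.5-fold, where 60.8% of the genes counted alike had. Of the 13, 2 were higher and 1 lower, and over all 26 tested 2 were higher and 6 lower. The higher genes among the 13 numbered up to 4 with 1 library left out and up to 5 in other fits. Ndufa4, a respiratory chain subunit, was among the higher ones (0.39 ± 0.11, adjusted p = 0.0091). Of 20 endoplasmic reticulum stress genes 1 was higher and 3 lower (2 and 5 without old ND replicate 5, and 1 and 8 over all 29 tested), of 11 senescence and damage genes 2 were higher and 2 lower, and of 8 proliferation genes 1 was lower, with 5 of 14 over all tested. Atf4, the central factor of the integrated stress response, was the higher stress gene (0.31 ± 0.08, adjusted p = 0.01), and Sesn2, one of its targets, was lower (-0.61 ± 0.17, adjusted p = 0.0089).

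The shared class holds the genes in which old ND and young HFD were alike and both differed from young ND. Pcdh17, a protocadherin, was at 5.56, 4.92, 7.39, 5.51 and 6.21 CPM in old ND, at 6.87, 6.53, 6.83, 5.53 and 6.34 CPM in young HFD, and at 3.71, 3.20, 2.74 and 2.86 CPM in young ND. Both groups lay above all young ND livers, by 0.93 (adjusted p = 0.0013) and 1.04 (adjusted p = 1.5e-05) on the log2 scale, with -0.12 ± 0.13 between them. Gsn, the actin-severing protein gelsolin, was at 24.7, 24.8, 34.8, 22.5 and 34.4 CPM in old ND, at 27.6, 30.1, 28.5, 23.6 and 26.7 CPM in young HFD and at 15.9, 18.4, 13.7 and 18.5 CPM in young ND. The 2 raised groups overlapped fully, differing by 0.05 ± 0.22. Bcl2l11 (BIM), a promoter of cell death, was the third named gene on this side, 0.68 above young ND in old ND (adjusted p = 0.011) and 0.71 in young HFD (adjusted p = 0.0018).

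On the lower side, Grk5, a kinase that switches off G protein-coupled receptors, was at 5.37, 4.88, 5.63, 5.97 and 3.91 CPM in old ND, at 5.40, 5.61, 5.42, 4.72 and 4.59 CPM in young HFD and at 10.7, 10.4, 14.0 and 7.26 CPM in young ND. It was lower than in young ND by the same amount in both, with log2 changes of -1.04 (adjusted p = 0.0047 in old ND and 0.00054 in young HFD), and the 95% interval between them ran from -0.40 to 0.41. Slc15a5, a transporter of the peptide transporter family, and Sult5a1, a sulfotransferase, were the other named genes on this side, with differences of 0.07 ± 0.22 and 0.06 ± 0.24 between the groups. Hpd, which carries tyrosine breakdown, was at 1351, 1571, 1348, 1307 and 1207 CPM in old ND, at 1237, 1462, 1251, 1312 and 1452 CPM in young HFD and at 1624, 1985, 1850 and 2075 CPM in young ND. Its log2 changes from young ND were -0.47 (adjusted p = 0.019) and -0.49 (adjusted p = 0.006). Hgd, a later enzyme of tyrosine breakdown, and Slc25a15, the ornithine carrier of the urea cycle, were the other shared genes of the amino acid list. The shared class also held Nampt, which makes NAD precursor (0.47 in old ND, adjusted p = 0.0064, and 0.44 in young HFD, adjusted p = 0.0019), and Hmox1, the haem-degrading enzyme (0.80, adjusted p = 0.013, and 0.61, adjusted p = 0.026). Hpd, Hgd, Slc25a15, Nampt and Hmox1 were chosen after their values were seen.

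In the opposite class 21 genes were higher in old ND and lower in young HFD than in young ND, and 10 were the other way. The genes named here were chosen after their values were seen. Csad, the enzyme that commits cysteine sulfinate to taurine, was at 456, 428, 433, 689 and 846 CPM in old ND, at 375, 274, 219.6 and 289 CPM in young ND and at 121, 79.5, 109, 51.3 and 126 CPM in young HFD. The 3 groups formed separate steps (old ND against young HFD 2.55 ± 0.28, adjusted p = 1.3e-06). Slc6a6, the taurine transporter, was at 180.5, 178, 178, 169.5 and 159.7 CPM in old ND, at 139, 135, 142 and 149 CPM in young ND and at 104, 117, 118, 125 and 121 CPM in young HFD, in the same order with a smaller gap (0.57 ± 0.07, adjusted p = 2.7e-06). Igfbp2, a secreted binder of insulin-like growth factors, was at 481, 438, 592, 341 and 606 CPM in old ND, at 238, 212, 239.8 and 251 CPM in young ND and at 101, 196, 138, 172 and 165 CPM in young HFD (1.67 ± 0.19, adjusted p = 8.5e-07). No library of any of these genes crossed into the range of another of the 3 groups.

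Gm2a, the lysosomal activator of ganglioside breakdown, was at 175, 153, 204, 182 and 164 CPM in old ND, at 126, 129, 128 and 122 CPM in young ND and at 70.6, 71.7, 80.8, 79.6 and 63.6 CPM in young HFD (1.26 ± 0.08, adjusted p = 3.3e-10). Ccl9, a macrophage chemokine, differed by 1.73 ± 0.15 (adjusted p = 1.6e-08). In the other direction, Dio1, the deiodinase that activates thyroid hormone in liver, was at 43.7, 55.0, 37.7, 62.8 and 97.2 CPM in old ND, at 117, 109, 120.4 and 102 CPM in young ND and at 166, 195, 146, 191 and 188 CPM in young HFD (-1.58 ± 0.19, adjusted p = 2.6e-06). Pcx, pyruvate carboxylase at the entry to gluconeogenesis, was in the same direction at -0.55 ± 0.08 (adjusted p = 2.9e-05), as was Inhbe, a hepatokine of the activin family, at -1.51 ± 0.19 (adjusted p = 6.9e-06). For Csad, Igfbp2, Gm2a and Dio1 no gene lies on the opposite strand within 5000 bases, and for Slc6a6, Ccl9, Pcx and Inhbe one does.

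**Figure D5:**
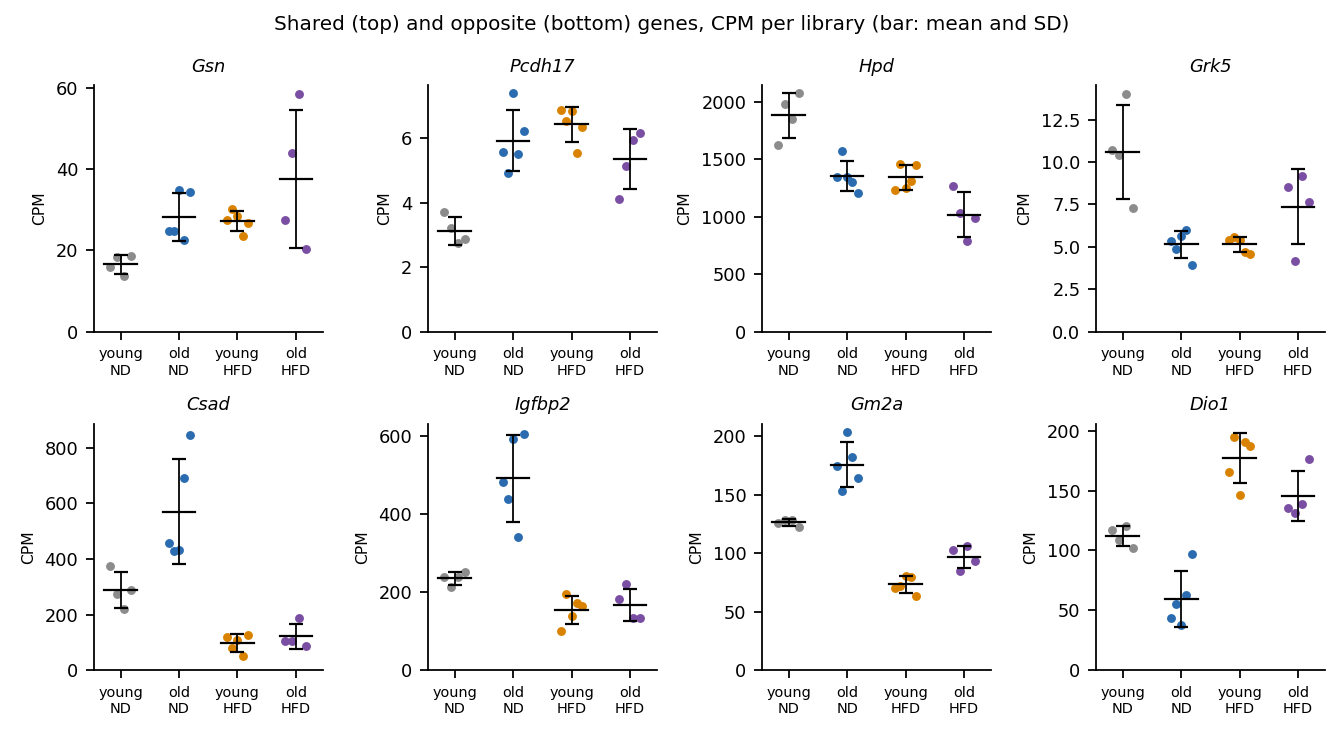
CPM of 4 genes of the shared class (Gsn, Pcdh17, Hpd, Grk5) and 4 of the opposite class (Csad, Igfbp2, Gm2a, Dio1) in each library of the 4 groups, 1 point per mouse, with bars for the group mean and SD. In the shared panels old ND and young HFD overlap and lie on 1 side of young ND; in the opposite panels they lie on either side of it.

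Of the 12 genes with the largest differences by the naming rule, 8 have a gene on the opposite strand within 5000 bases, and of the 8215 genes counted alike 3560 have none. Tmem206, a chloride channel subunit, was at 5.13, 2.90, 3.27, 3.37 and 3.73 CPM in old ND and at 94.4, 92.0, 84.4, 84.0 and 87.3 CPM in young HFD. Young ND lay with old ND and old HFD with young HFD, and the counted span, chr1:191325965-191352925, reaches Ppp2r5a on the opposite strand. Mir6978, a microRNA gene within C3 on the same strand, was at 30.0, 29.0, 30.0, 29.1 and 36.5 CPM in old ND and at no more than 0.0870 CPM in young HFD. Fads3 (-3.55 ± 0.23, adjusted p = 4.2e-10) and Rundc3a (-3.79 ± 0.19, adjusted p = 3e-12) are further genes with a neighbour on the opposite strand, which for Fads3 is Fads2. Diet and counting cannot be told apart in these values. Cxcl13, Adgrf1 (an adhesion receptor, 2.96 ± 0.41, adjusted p = 1.8e-05) and Sytl5 (a vesicle protein, 2.77 ± 0.60, adjusted p = 0.0019) were the genes other than Mir6978 with no such neighbour. Outside these 12, genes described above that have such a neighbour include H2-Eb1, Irf7, Fgf21, Fads2, Mlxipl, Cyp27a1, Cth and Lect2.

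Of 6 erythrocyte genes 4 were lower in old ND than in young HFD, where 17.2% of all genes tested were. Against young ND 3 were lower in old ND, and 3 were higher and 1 lower in young HFD. The shares called against young ND over all genes tested are not given here. The 6 summed to 270.4 to 566.7 CPM in old ND and 1057 to 2009 CPM in young HFD, with 516.1 to 857.4 CPM in young ND and 1139 to 2247 CPM in old HFD, and 1 of the 6 is counted alike. Hba-a1, an α-globin chosen after its values were seen and not counted alike because most of its 31-mers occur at another locus, differed by -3.07 ± 0.31 (adjusted p = 3.6e-07).

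Of genes known to differ between C57BL/6 substrains, Nnt and Wdfy1 separated both old groups from both young groups. Nnt, the mitochondrial transhydrogenase that carries a deletion in C57BL/6J, was at 49.9, 56.8, 46.7, 58.0 and 59.8 CPM in old ND and at 202, 184, 188, 204 and 174 CPM in young HFD. Old HFD lay with old ND, at 48.5 to 64.3 CPM, and young ND with young HFD, at 162 to 190.4 CPM (old ND against young HFD -1.81 ± 0.09, adjusted p = 2.1e-12). Wdfy1, an adaptor of Toll-like receptor signalling, was at 16.3, 16.6, 16.5, 17.9 and 17.2 CPM in old ND and at 50.5, 48.9, 52.1, 44.4 and 41.9 CPM in young HFD (-1.49 ± 0.07, adjusted p = 1.7e-12). Age and the levels of Nnt and Wdfy1 coincide in the 18 libraries and cannot be told apart in any result that sets old ND apart. Cyfip2, counted over different transcripts in the tables and so not counted alike, differed by 0.64 ± 0.22 (adjusted p = 0.036). That call was lost without old ND replicate 3 (adjusted p = 0.13), without young HFD replicate 1, 2 or 3 (0.083, 0.083 and 0.076) and with scaling factors from genes counted alike (0.053). Within each diet, each old liver lay above each young liver in Cyfip2. On ND it was at 2.92 to 5.59 CPM in old and 2.33 to 2.59 CPM in young livers. On HFD it was at 3.96 to 7.69 and 1.96 to 3.01 CPM. Entpd4 overlaps an exon on the opposite strand and shares its sequence with another locus. No difference between old ND and young HFD is given for it. It was at most 0.0376 CPM on ND, 36.7 to 40.89 CPM in young HFD and 60.38 to 79.65 CPM in old HFD.

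A list of regulators, enzymes and a T cell marker that the study discusses held 6 genes counted alike, of which 2 were called, Cd8a (above) and Sirt1, an NAD-dependent deacetylase. Sirt1 was at 16.1, 18.6, 17.6, 20.1 and 25.2 CPM in old ND and at 14.1, 15.0, 15.3, 13.3 and 13.1 CPM in young HFD (0.46 ± 0.12, adjusted p = 0.005). Trim24, a chromatin reader, was in the shared class, 0.50 above young ND in old ND (adjusted p = 0.047) and 0.48 in young HFD (adjusted p = 0.038). Rela of NF-κB, Hnf4a of hepatocyte identity and Bckdk, the kinase that restrains branched-chain amino acid breakdown, were not called between the groups, at 0.05 (adjusted p = 0.65), 0.15 (adjusted p = 0.33) and -0.22 (adjusted p = 0.099). At an unadjusted p under 0.05, 1 of the 6 was lower in old ND. Irf3 has 8 exon bases opposite another gene and is not counted alike (0.21 ± 0.07, adjusted p = 0.036), a call lost with scaling factors from genes counted alike (adjusted p = 0.12), with limma voom (0.0535), with no low-count filter (0.055), in a fit to the 2 groups alone (0.062) and without old ND replicate 1, 3 or 5 (0.067, 0.068 and 0.089), young HFD replicate 1, 3, 4 or 5 (0.065, 0.080, 0.086 and 0.055) or old HFD replicate 1 (0.051).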

How the data were processed

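Whole-liver poly(A) RNA (Trizol-chloroform, NEB kit) was sequenced from 18 mice. Per the labels' processing notes the reads were aligned with STAR to mm10 (GRCm38) and counted with HOMER. The deposited values are raw counts per gene, made by the authors over the exons of 1 RefSeq transcript, in 2 tables of 24537 genes. HOMER is taken from the headers, although the study's methods describe a different counter. The ND table was counted on the gene's strand and the HFD table without a strand option.

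Here the tables were joined by symbol. Genes were filtered with filterByExpr, scaled with TMM and fitted over all 4 groups with edgeR 4.0.16 (quasi-likelihood, robust, two-sided, R 4.3.3), with p-values adjusted by Benjamini-Hochberg over 14275 genes and called under 0.05. Exon overlap was taken from GENCODE M21, which matched 23932 genes, and 31-mers from its transcripts. DESeq2 1.42.0, limma 3.58.1 voom, other scalings and filters, a replicate block and leaving out each of 18 libraries were alternatives. The code was tested on simulated data. No 2 replicates agreed within sampling noise (chi-square per degree of freedom 13.74 or more). The precision of a level is that of its count, and mice are the replicates.

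The members and gene lists were chosen with earlier results of these data known. Named genes were, among genes counted alike, the 6 highest and 6 lowest differences without overlap and with at least 4 CPM, 3 per class and direction, up to 4 called per list with at least 1 CPM, and a list of regulators that the study discusses, and substrain markers. Not every gene of the rule is described, some are not reported here, and others are stated to be chosen after their values were seen.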

Additional observations from a re-analysis of the deposited data

Results flagged for a closer look

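In groups of 5 libraries, a library was listed here when its gap to the nearest other exceeded 0.71 of the group's range, which chance alone gives in about 1 of 20 groups. Of 198 groups tested over the genes of the report, 10 held such a library, a number in the range that chance alone gives. In old ND replicate 5, Cyp7a1 was at 38.2 CPM against 128.8 to 190.5 CPM in the others, Ndufa4 at 337.2 against 225.8 to 238.6 CPM, and Mir6978 at 36.5 against 29.0 to 30.0 CPM. In old ND replicate 1, Sult5a1 was at 15.97 CPM against 9.22 to 10.7 CPM. In old ND replicate 2, Hmox1 was at 27.2 CPM against 42.9 to 47.6 CPM. In old ND replicate 3, Entpd4 was at 0.0368 CPM where the others were at 0. In young HFD replicate 1, Cps1 was at 2524 CPM against 3707 to 4286 CPM. In young HFD replicate 2, Pparg was at 18.7 CPM against 24.6 to 27.4 CPM. In young HFD replicate 3, Sult5a1 was at 5.49 CPM against 11.2 to 13.8 CPM. In young HFD replicate 4, Nkg7 was at 0.813 CPM against 0.305 to 0.409 CPM.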

How the results depend on the processing

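A fold change of at least 2 left 1610 genes called, 469 among genes counted alike, 126 with old ND apart, 179 with young HFD apart and 1 shared. Without an opposite-strand gene within 5000 bases these were 895 counted alike, 274, 239 and 37, and with no shared 31-mer 1264, 342, 346 and 55. With limma voom old ND stood apart in 971 genes, young HFD in 935, and 337 were shared. Young HFD stood apart in 874 genes with upper-quartile scaling, 346 with at least 10 counts in every library and 342 in a separate fit to genes counted alike. The shared class held 155 genes with DESeq2, 184 in a fit without old HFD, 59 with no low-count filter, 58 in the separate fit and 55 with a narrower interval. The cause of these shifts was not tested, beyond the fewer genes that the stricter definitions admit. Leaving out 1 library gave 3725 to 4791 genes called, 1558 to 2226 counted alike, 269 to 780 with old ND apart, 373 to 638 with young HFD apart and 31 to 152 shared. None of the called genes given with a value changed direction, while differences near 0 of genes not called between the groups (such as Gsn, Grk5, Hpd and Rela) changed sign in some fits. The interferon-stimulated genes higher in old ND numbered 4 to 14 over all alternatives, and 5 with the replicate block. The replicate block gave 4286 genes called, 1904 of them counted alike, against 4355 and 1963. Libraries with the same number did not deviate together (correlations of -0.25, 0.20, -0.03, -0.18 and 0.05), so the numbers do not pair the mice. Depth limits genes such as Cd8a, Nkg7 and Slc7a11, which have few counts in the lower group. Table, diet and counting coincide, and age coincides with the levels of Nnt and Wdfy1.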
